A study of Bos taurus with 6 samples.

Results

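Intraflagellar transport moves cargo along the microtubules of the cilium, the slender sensory or motile projection of many animal cells. Its trains are built from complex B, which is carried to the tip by kinesin-2, and complex A, which is needed for the return trip by dynein-2 and for bringing membrane proteins into the cilium. IFT122 is a core subunit of complex A, and its loss in the mouse disturbs hedgehog signalling, a pathway that is read out at the primary cilium. In the mouse, primary cilia become prominent on the embryo after implantation.

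The genes described here are 9 intraflagellar transport genes, IFT122 and its partners IFT20, IFT27, IFT46, IFT52, IFT57, IFT80, IFT88 and IFT140. They were taken by gene symbol from the annotation of the Affymetrix GeneChip Bovine Genome Array, with every probe set, meaning every group of oligonucleotides that reports 1 transcript. Probe sets carried 7 of the 9 symbols, in 10 probe sets out of 24016 tested, whereas IFT88 and IFT140 had no probe set under those symbols and were not analysed here. IFT122 was chosen because its rise was the largest in the comparison, so its own difference is a description and was not tested. The partners were chosen by name.

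The 6 arrays hold bovine (Bos taurus) blastocysts of day 7, with 3 arrays in each group. All embryos came from Simmental heifers that were synchronized, superovulated (stimulated to release many oocytes) and inseminated. In the superovulated group the embryos stayed in those animals until day 7. In the synchronized group they were flushed on day 2 at the 2-cell stage, placed by endoscope into recipients that were synchronized but not stimulated, and recovered on day 7, so that flushing and transfer go with this group and cannot be told apart from the recipient. No label says whether arrays of a group came from separate collections, and p-values therefore reflect only how much these arrays vary, possibly for technical reasons. Values are log2 signals made by the authors with GCRMA, an array method that subtracts background, and each difference is the superovulated mean less the synchronized mean in log2 units.

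Most probe sets were dim, with array medians between 2.75 and 2.8, and signals under log2 4 are called near background. The probe sets above log2 4 numbered 1457 to 1894 in the superovulated group, against 973, 1850 and 1184 for synchronized arrays 1, 2 and 3. The bacterial and phage control transcripts, added at hybridization, averaged 12.65, 12.69 and 12.68 in the superovulated group, against 13.14, 12.91 and 13.54 in the synchronized group, without overlap; the part of this technical difference in the values below was not tested. Averaged over the 6 arrays 1406 exceeded log2 4, and these differed by a median of 0.59, against -0.02 over all probe sets. Of the trophectoderm markers that define the outer layer of a blastocyst, KRT18 read 7.96, 8.11 and 7.74 in the superovulated group, against 3.55, 3.68 and 4.9 in the synchronized group, while KRT8 was near background on all 6. Of 8 inner cell mass genes listed, 3 were measured. POU5F1 was below log2 4 on every array and differed by 0.81, and KLF4 differed by 1.32 (limma adjusted p = 0.0886 and 0.150). SOX2 was near background at 2.4 to 2.44 on every array and differed by -0.007. In RNA from whole embryos, fewer cells of a type and less RNA per cell cannot be told apart.

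IFT122 was bright in blastocysts from superovulated heifers and near background on most synchronized arrays. Its brighter probe set read 8.29, 8.59 and 8.43 in the superovulated group, against 2.97, 3.16 and 4.74 in the synchronized group, with the arrays of each group in the order 1 to 3 here and throughout. The groups did not overlap, and synchronized array 3 stood above the other synchronized arrays. The means were 8.44 ± 0.15 (SD, n = 3) and 3.62 ± 0.97 (SD, n = 3), a difference of 4.81, or 28.1-fold. On the superovulated arrays at least 99.6% of all probe sets were dimmer, against 65.1%, 77.5% and 97.5% on synchronized arrays 1 to 3. GCRMA compresses signals near background, so the size of this difference is uncertain.

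The choice of IFT122 rested on that probe set, which had the largest rise of all 24016. Just behind it came 2 probe sets without a gene symbol, at 4.56 and 4.45, and then the transcriptional repressor gene ZBTB18 at 4.38. The dimmer IFT122 probe set was designed from the same expressed sequence, so it is not independent of the first. It read 3.7, 3.51 and 3.9 in the superovulated group, against 2.33, 2.31 and 2.62 in the synchronized group, a difference of 1.28. All its values lay below log2 4, and its groups did not overlap either. On both probe sets synchronized array 3 was the highest of its group.

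**Figure D1:**
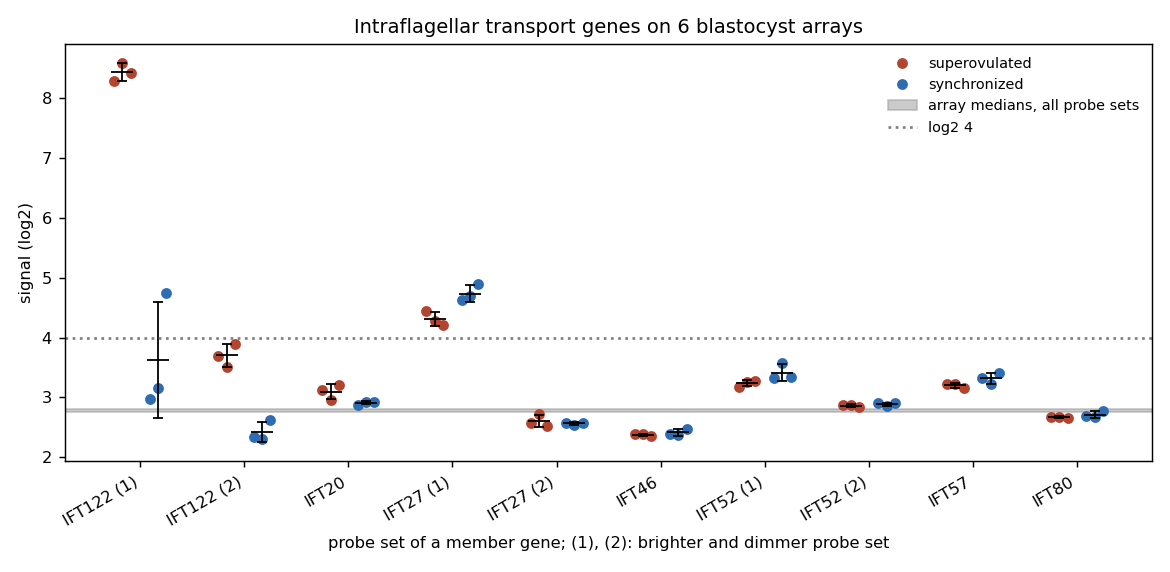
Log2 signal (vertical axis) of the 10 probe sets of the 7 measured intraflagellar transport genes (horizontal axis) on each array, red for superovulated and blue for synchronized, with mean and SD in black. The grey band spans the array medians and the dotted line marks log2 4. The brighter IFT122 probe set separates the groups, at 8.29 and above against 4.74 and below, whereas 7 of the 8 partner probe sets lie below log2 4 on every array.

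No partner followed IFT122. Of the 8 probe sets of the 6 measured partners, all of them subunits of complex B, 0 passed an adjusted p of 0.05 in limma, a linear model fitted over all 24016 probe sets, where 0.716% were called in either direction, 0.695% as rises and 0.0208% as falls. At an unadjusted p under 0.05 there were 2 of 8, 1 higher and 1 lower, against 6.65% of all probe sets. Their differences lay between -0.42 and 0.18, with a median of -0.04, beside a median of -0.02 over all probe sets tested. The highest upper bound among their 95% intervals was 0.36, so each interval excludes a rise above 0.36 in signal. For the 7 probe sets near background this describes the signal, and a change in a transcript too scarce for the array was not detectable.

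IFT27, a small GTPase of complex B that helps the BBSome, a cargo adaptor, to leave the cilium, was the only partner clearly above background. Its brighter probe set read 4.45, 4.27 and 4.21 in the superovulated group, against 4.62, 4.69 and 4.89 in the synchronized group. Every synchronized array was thus above every superovulated one, opposite to IFT122. The difference was -0.42 (95% interval -0.68 to -0.17), and limma gave an adjusted p of 0.293, which does not pass. By the array maker's naming this is a probe set whose oligonucleotides can match more than 1 transcript. The second IFT27 probe set was near background at 2.53 to 2.72 on all 6 arrays, with overlapping groups and a difference of 0.04.

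IFT20 ties intraflagellar transport to vesicle traffic from the Golgi apparatus. It read 3.12, 2.96 and 3.21 in the superovulated group, against 2.88, 2.93 and 2.93 in the synchronized group. It was the only partner whose superovulated arrays all lay higher, but by a narrow margin, since 2.96 and 2.93 were the nearest values. The difference was 0.18 (95% interval 0.01 to 0.36, limma adjusted p = 0.636), and it turned to -0.51 when each array was centred on its bright probe sets.

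IFT52 and IFT46 belong to the core of complex B. The brighter IFT52 probe set read 3.18, 3.25 and 3.28 in the superovulated group, against 3.32, 3.58 and 3.34 in the synchronized group. The synchronized arrays were higher without overlap, by a difference of -0.18 that did not pass (limma adjusted p = 0.636). The dimmer IFT52 probe set spanned 2.84 to 2.9 over all 6 arrays and its groups overlapped. Groups without overlap were seen in 3 of the 8 partner probe sets, 1 higher and 2 lower, where 13.3% of all probe sets had them.

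IFT57 and IFT80, from the other part of complex B, did not separate the groups. IFT57 read 3.23, 3.22 and 3.15 in the superovulated group, against 3.32, 3.22 and 3.41 in the synchronized group, a difference of -0.12 (limma adjusted p = 0.636). IFT80 read 2.68, 2.68 and 2.66, then 2.69, 2.67 and 2.78 for the synchronized arrays. IFT46 ran exactly parallel to IFT80, at 0.3 below it on every array. This stepwise profile was shared, within 0.01 on every array, by 120 of the 24016 probe sets, with means between 2.21 and 3.53, so the small steps of IFT46 and IFT80 between arrays were those of many other near-background probe sets.

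Of 8 other genes listed for complex A and its adaptor, 3 were measured, in 3 probe sets. Of these 1 rose, where 0.695% of all probe sets did. IFT43, a small subunit of complex A, read 5.05, 4.84 and 4.95 in the superovulated group, against 3.45, 2.85 and 3.29 in the synchronized group. All superovulated arrays were above log2 4 and all synchronized arrays below it. The difference was 1.75 (95% interval 1.31 to 2.19), with an adjusted p of 0.0373 in limma, and its size is uncertain for the same reason as that of IFT122, as are those of LZTFL1 and MKKS. The call depended on the arrays used, while the difference ran from 1.58 to 1.88 with 1 array left out. Without synchronized array 2 the adjusted p was 0.0301, but leaving out any other single array ended the call, at adjusted p = 0.121, 0.132 and 0.131 without superovulated arrays 1, 2 and 3, and 0.0634 and 0.133 without synchronized arrays 1 and 3. The call was also lost after a second quantile normalization (1.51, adjusted p = 0.162), after centring on bright probe sets (1.06, adjusted p = 0.0949) and with an intensity trend (adjusted p = 0.0542). Over all alternatives the adjusted p lay between 0.00534 and 0.162, with the difference above 0 in each. The 0.00534 came from bright probe sets alone, a filter that IFT43 passed only through its superovulated arrays, so nothing is read from it.

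WDR19, another complex A subunit, also known as IFT144, had a quite different profile. It read 2.88, 2.78 and 4.36 in the superovulated group, against 2.86, 6.05 and 3.08 in the synchronized group. Only superovulated array 3 and synchronized array 2 were above log2 4, and the difference of -0.66 had an interval from -3.31 to 2 (limma adjusted p = 0.727). TULP3, the adaptor that links complex A to membrane cargo, stayed between 2.26 and 2.49. Among the other measured subunits of complex B, CLUAP1, IFT25, RABL2B and TRAF3IP1, 0 of 4 probe sets passed in limma and 0 had an unadjusted p under 0.05. The differences lay between -0.50 for CLUAP1 (adjusted p = 0.636) and -0.01 for TRAF3IP1, with -0.21 for IFT25 (adjusted p = 0.691). All 4 had values below log2 4 on every array.

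**Figure D2:**
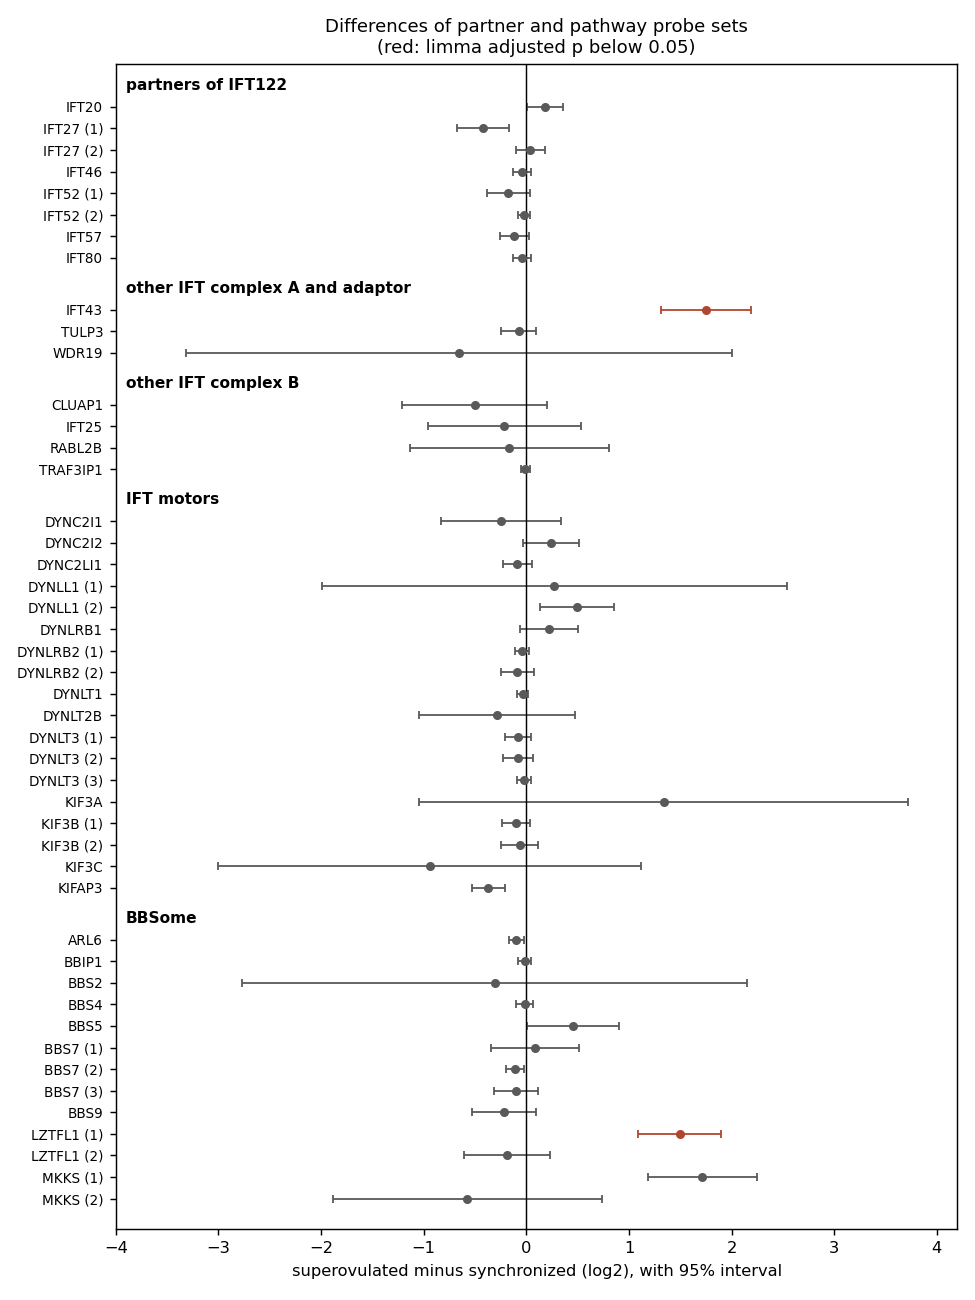
Difference in log2 signal, superovulated minus synchronized (horizontal axis), with its 95% interval for each probe set of the partners, of the other subunits of complexes A and B, of the motors and of the BBSome list. Red marks an adjusted p under 0.05. IFT43 at 1.75 and 1 probe set of LZTFL1 at 1.49 are red, and the 8 partner probe sets stay between -0.42 and 0.18.

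The motors of intraflagellar transport did not pass. In the list of kinesin-2 and dynein-2 subunits and light chains, 0 of 18 probe sets for 13 genes had an adjusted p under 0.05 in limma. An unadjusted p under 0.05 was seen in 2, against 6.65% of all probe sets, and the median difference was -0.07. Of the 18, 16 had a mean at or below log2 4. KIF3A, a motor subunit of the kinesin-2 that drives trains to the tip, was above log2 4 except on synchronized array 1 and varied within the synchronized group. It read 5.95, 6.38 and 6.24 in the superovulated group, against 3.38, 6.82 and 4.36 in the synchronized group, so that synchronized array 2 was the highest of all. The difference was 1.34 (95% interval -1.05 to 3.72, adjusted p = 0.636). KIFAP3, the adaptor subunit of the same motor, read 2.85, 2.82 and 2.85, then 3.11, 3.18 and 3.34, near background and higher on all synchronized arrays (difference -0.37, adjusted p = 0.130). For DYNLL1, a light chain shared by many dynein and other complexes, the brighter probe set differed by 0.27 and the dimmer by 0.49 (adjusted p = 0.851 and 0.449).

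The BBSome carries membrane proteins along with the trains, and 1 of 13 probe sets in its list rose, where 0.695% of all probe sets did. At an unadjusted p under 0.05 there were 3 higher and 2 lower of the 13, against 6.65% of all probe sets. The 2 lower, ARL6 at -0.10 and 1 probe set of BBS7 at -0.11, were near background. Of the 13, 12 had a mean at or below log2 4. LZTFL1, which regulates the entry of the BBSome into the cilium, read 4.84, 4.68 and 4.27 in the superovulated group, against 3.1, 3.05 and 3.16 in the synchronized group. The 2 groups were far apart relative to their spread, with a difference of 1.49 (95% interval 1.09 to 1.89, limma adjusted p = 0.0413). The other LZTFL1 probe set was near background and differed by -0.19. The call was kept without superovulated array 3 (adjusted p = 0.0248). It was lost without superovulated arrays 1 and 2 (0.0907 and 0.161) and without synchronized arrays 1, 2 and 3 (0.134, 0.0992 and 0.156), and the adjusted p ranged from 0.0248 to 0.223 over all alternatives. The difference ranged from 0.80, after centring on bright probe sets, to 1.66.

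MKKS, a chaperonin-like protein that helps to assemble the BBSome, lay close to the threshold. Its brighter probe set read 4.68, 4.18 and 4.96 in the superovulated group, against 2.88, 2.93 and 2.87 in the synchronized group. The difference was 1.71 (95% interval 1.18 to 2.24) with an adjusted p of 0.0545, and without superovulated array 2 it was 1.93 with an adjusted p of 0.0386, the lowest of its alternatives, which reached 0.268. A second MKKS probe set read 2.34 to 2.36 on 5 arrays and 4.06 on synchronized array 1. BBS2, a structural subunit, read 3.99, 3.41 and 5.1, then 3.13, 6.29 and 4.01, again highest on synchronized array 2.

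The measured genes of the base of the cilium and of hedgehog signalling gave no calls. The transition zone list, the gate between cilium and cytoplasm, had 0 of 20 probe sets called and 0 with an unadjusted p under 0.05 in limma, and only INVS had a mean above log2 4 (difference 0.46, adjusted p = 0.636). TMEM237, next in order of p, differed by -0.08. Among basal body and assembly genes 0 of 21 probe sets passed in limma and 3 had an unadjusted p under 0.05, against 6.65% of all probe sets. Of the 21, 19 had a mean at or below log2 4. RAB11A, a GTPase of recycling endosomes that also acts in cilium assembly, read 7.87, 8 and 8.02 in the superovulated group, against 4.12, 5.85 and 5.48 in the synchronized group. The groups were apart, but the difference of 2.81 did not pass (limma adjusted p = 0.125). It passed in only 3 of 13 alternatives, and the adjusted p reached 0.402 without superovulated array 2. The 3 were without synchronized array 1 (2.30, adjusted p = 0.0389), centring on bright probe sets (2.12, adjusted p = 7.52e-06) and bright probe sets alone (adjusted p = 0.00864). Centring on bright probe sets also moved the median of all differences by -0.69. RAB8A, a GTPase of vesicle delivery to the cilium, differed by 0.89 (adjusted p = 0.341). In the hedgehog list 0 of 9 probe sets passed in limma, 0 had an unadjusted p under 0.05 and 0 had a mean above log2 4. The receptor gene PTCH1, itself a target of the pathway, differed by -0.31 and the co-receptor gene BOC by -0.23.

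Over these 7 lists together, 67 of 135 listed genes were measured, in 88 probe sets, and the others were not analysed here. Of the 88 probe sets 2 rose and 0 fell, where 0.695% of all probe sets rose and 0.0208% fell, and the median difference was -0.03. The groups did not overlap in 14 of the 88, 7 higher and 7 lower, where 13.3% of all probe sets had such groups. Only 7 of the 88 had a mean above log2 4, where 8.18% of all 1406 such probe sets were called. IFT43 is 1 of the 7 only through its superovulated arrays, so nothing is read from that share. On single arrays, 14 of the 88 exceeded log2 4 at least once.

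Several detected genes of the pathway differed in how they read on synchronized array 2. IFT122, IFT43, LZTFL1 and MKKS were below log2 4 on synchronized array 2, at 3.16, 2.85, 3.05 and 2.93, although that array had 1850 probe sets above log2 4, within the range of the superovulated arrays. KIF3A, DYNLL1, BBS2, WDR19, KIF3C and DYNLT2B were instead highest of all 6 on that array, at 6.82, 6.77, 6.29, 6.05, 5.31 and 4.09. Both sets were chosen after their values were seen, so the contrast is a description. Those of the first set were above log2 4 on every superovulated array and below it on synchronized array 2. The second set holds the pathway probe sets above log2 4 with their highest value on that array. RAB11A, RAB8A, INVS and BBS5 were detected too and belong to neither set. INVS and BBS5 were also below log2 4 on synchronized array 2, at 3.79 and 3.25, but were not above it on every superovulated array. The kinesin gene KIF3C was at 2.58 to 2.68 on the other 5 arrays.

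Some markers of other cells were highest on the same arrays as WDR19 and BBS2. TNFAIP6, a matrix protein made by the cumulus cells that surround the oocyte, read 3.05, 2.99 and 7.38 in the superovulated group, against 4.25, 8.47 and 5.96 in the synchronized group on its brighter probe set. Its other probe set stayed at 2.39 to 2.43. From the same list INHA and PTX3 were also highest on synchronized array 2, at 6.79 and 5.21. INHBA, STAR and a CYP19A1 probe set peaked there too, but below log2 4, at 3.83, 3.39 and 2.6. FSHR, AMH and the other CYP19A1 probe sets stayed below log2 4 on every array, and HAS2 and FOXL2 peaked on other arrays. The uterine gene SERPINA14 read 3.34, 3.71 and 6.79, then 4.45, 7.87 and 4.65. Over the whole cumulus and granulosa list, 10 of 10 genes were measured and the list mean ran from 2.91 to 3.30 on the superovulated and from 3.07 to 3.55 on the synchronized arrays. The secretory oviduct and uterus list, with 7 of 8 genes measured, ran from 2.73 to 3.24 and from 2.86 to 3.46, and the oviductal glycoprotein gene OVGP1 was at 2.19 to 2.26 throughout. In order of p, the first genes of these lists were CYP19A1 (difference -0.08) and HAS2 (0.27), and PAX8 (-0.05) and OVGP1 (-0.03), all with a limma adjusted p of 0.636. The part of these cells in the values of WDR19, KIF3A or BBS2 was not tested.

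The lining of the oviduct holds multiciliated cells. Probe sets existed for 14 of 49 listed markers, among them the axonemal genes DNAH7, TEKT1, CCDC39, RSPH9 and SPAG6, while FOXJ1, DNAI1 and HYDIN had none. Of their 20 probe sets 0 had a mean above log2 4, 0 passed in limma and 2 had an unadjusted p under 0.05, against 6.65% of all probe sets. Both were lower in the superovulated group, MYB at -0.76 and CAPSL at -0.07. The list mean was 2.79 to 2.80 on the superovulated and 2.87 to 2.92 on the synchronized arrays. The 14 measured genes were near background except for single values. These were CETN2 at 4.72 on synchronized array 2 and 1 MYB probe set at 4.18 on synchronized array 1. The markers without a probe set were not analysed here. The blood and immune list, with 6 of 8 genes measured, had 0 of 12 probe sets with a mean above log2 4, and its list mean ran from 2.68 to 2.72 and from 2.68 to 2.76, with HBA at -0.10 and PTPRC at -0.08 as its genes of smallest p. Some trophectoderm markers were higher on the same arrays as IFT122. Of the 7 probe sets of that list 2 rose, where 0.695% of all probe sets did. They were KRT18 at 3.89 and DAB2 at 2.21 (limma adjusted p = 0.0410 and 0.0387). EZR (2.18) and TEAD4 (0.38) did not pass, and ATP1B1 (-0.32), the other DAB2 probe set (-0.13) and KRT8 (-0.01) were not higher. The list mean was 4.52 to 4.76 on the superovulated and 3.26 to 3.74 on the synchronized arrays. The part of the trophectoderm markers in the values of IFT122 and IFT43 was not tested.

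**Figure D3:**
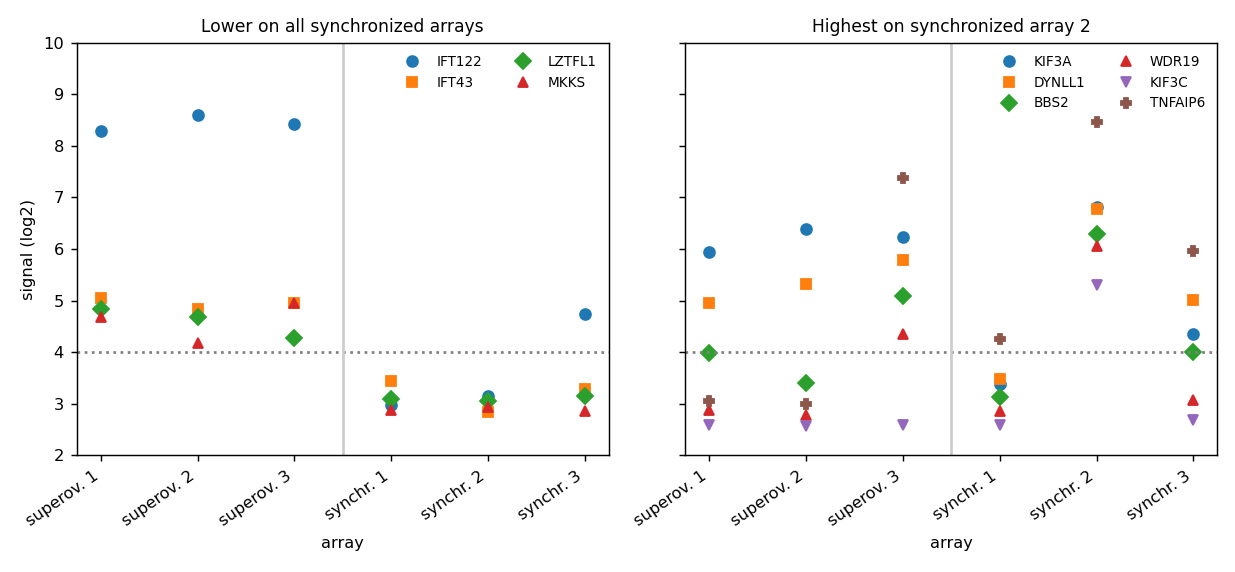
Log2 signal (vertical axis) on each array (horizontal axis), with a grey line between the groups and a dotted line at log2 4. IFT122, IFT43, LZTFL1 and MKKS (brighter probe sets, left) are at 4.18 or above on the superovulated arrays and, apart from IFT122 at 4.74, at 3.45 or below on the synchronized ones. KIF3A, DYNLL1, BBS2, WDR19, KIF3C and the cumulus gene TNFAIP6 (brighter probe sets, right) peak on synchronized array 2.

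The genes most like IFT122 were not other cilium genes. Likeness was the mean absolute difference in log2 signal over the 6 arrays after each probe set was centred on its own mean, where 0 is an identical profile. The nearest were ZBTB18 (0.29), the chaperone gene HSPA14 (0.39), the trophectoderm keratin gene KRT18 (0.46), the co-chaperone and prostaglandin synthase gene PTGES3 (0.61), the mRNA cleavage endonuclease gene CPSF3 (0.66) and the protein acetyltransferase gene NAA40 (0.67). In all 6 the superovulated arrays lay within a narrow band, such as 8.4, 8.76 and 8.48 for ZBTB18, and the synchronized arrays were lower, at 3.69, 3.97 and 4.85. Synchronized array 3 was the highest synchronized array in each of them, as in IFT122. The likeness follows from the choice of IFT122 as the largest rise and was not tested.

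Among probe sets with 1 gene symbol IFT43 stood at rank 207 in likeness (1.53), the brighter MKKS probe set at 214 (1.55), LZTFL1 at 284 (1.66) and the dimmer IFT122 probe set at 366 (1.77). Ranks are given only for the members and for IFT43, MKKS and LZTFL1, which were chosen after their values were seen. None is given for RAB11A, which differed by 2.81, or KIF3A, by 1.34, so IFT43 was not shown to be the nearest cilium gene. The partners lay between 2.32 for IFT20 and 2.62 for the brighter IFT27 probe set. The measure counts amplitude, so a gene with the same direction and a smaller difference ranks lower. A nearly flat probe set such as that of IFT46 stood at 2.43, so the partner values mainly reflect small differences between arrays.

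**Figure D4:**
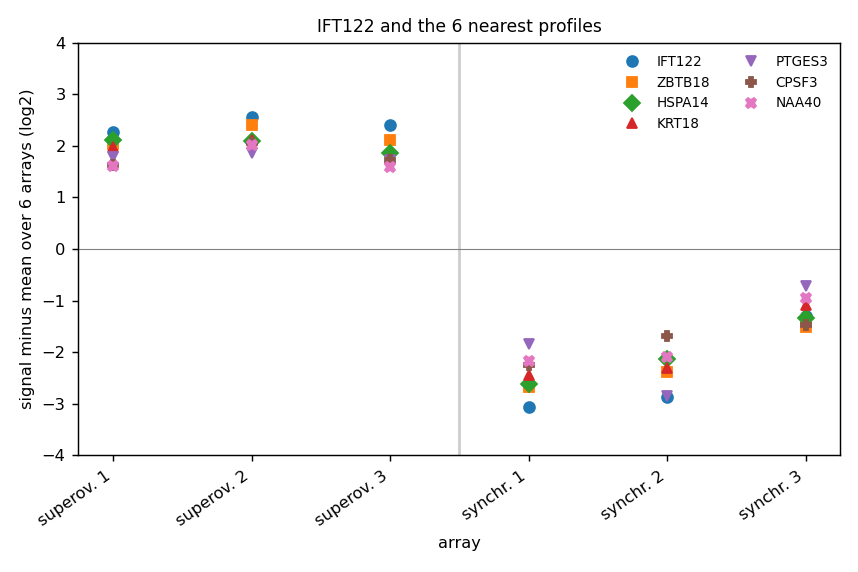
Log2 signal minus the probe set's own mean over the 6 arrays (vertical axis) for IFT122 and the 6 nearest probe sets with a gene symbol, by array (horizontal axis). In all 7 the superovulated arrays are above the line at 0 and the synchronized arrays below it, with synchronized array 3 nearest to the line.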

How the data were processed

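The authors deposited 1 log2 value for each probe set of each array, computed with GCRMA per the submitters' processing notes. The GCRMA version is not stated in the labels used here, nor is the set of arrays that was normalized in 1 run. No further scaling was applied. Of 24128 probe sets, 112 controls were left out. Symbols came from GEO's platform annotation: 13292 tested probe sets had 1 symbol, 86 several and 10638 none. Identifiers matched the ARS-UCD2.0 gene table for 13263 and changed 0 symbols.

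The comparison used limma 3.58.1 under R 4.3.3, with lmFit and eBayes, no covariate and a two-sided test, with Benjamini-Hochberg adjustment over all 24016 probe sets and a threshold of 0.05. The fit was first tested on simulated data, where most differences of 1 or 2 placed in bright probe sets were not called. With 3 arrays per group, the array number limits the precision, and a gene without a call may still differ. Members and lists were chosen with earlier results of these data known. Named were all members, list genes with a call, the 2 probe sets of smallest p in each list with no more than 2 calls, and the 6 probe sets nearest to IFT122; other genes were chosen after their values were seen. Alternatives were other scalings, a filter on dim probe sets, an intensity trend, a replicate block and left-out arrays. Same-numbered arrays deviated from their group means with correlations of 0.601, -0.543 and -0.438 over bright probe sets, so the numbers were not taken as pairs.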

Additional observations from a re-analysis of the deposited data

How the results depend on the processing

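The partner probe sets had 0 calls in each of the alternatives run, with the single array left out too. The count over all probe sets was 172 and became 28 after a second quantile normalization, 529 (211 rises, 39.9%, and 318 falls) after centring on bright probe sets, 441 among 1406 bright probe sets alone, 50 with an intensity trend, 0 with a replicate block (1382 at an unadjusted p under 0.05) and 26 to 137 with 1 array left out. As deposited 97.1% of the calls were rises. Centring on bright probe sets moved the median of all differences by -0.69. Leaving out both superovulated array 3 and synchronized array 2, an alternative chosen after the data were seen, left 1 call. For the other cilium genes the 2 calls became 0 after quantile normalization, with the trend, with the replicate block and without both those arrays (6, 11, 9 and 8 at an unadjusted p under 0.05), 4 (1 rise and 3 falls) after centring on bright probe sets, and 0 to 1 with 1 array left out. The difference of IFT20 turned to -0.51 and that of the dimmer IFT27 probe set to -0.65 after that centring, the latter running from -0.017 (without superovulated array 2) to 0.078 with 1 array left out, and the dimmer IFT52 probe set to 0.0067 after quantile normalization. The difference of the brighter IFT122 probe set ran from 4.12 to 5.37, of the dimmer one from 0.59 to 1.38, and of IFT43 from 1.06 to 1.88. The cause of these changes was not tested. The signal over background limits what can be said of 7 of the 8 partner probe sets.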
